A study of Homo sapiens with 42 samples.

Results

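Open chromatin was compared between MCF10A cells kept for 48 h with interferon gamma (IFNG) added to epidermal growth factor (EGF) and cells kept for 48 h with EGF alone. The comparison took the 3 libraries labelled IFNG at 48 h (replicates A to C) and the 4 labelled EGF at 48 h (replicates A to D), which are 7 of the 42 libraries of the series. EGF was given at 10 ng/ml in both groups, so that IFNG at 20 ng/ml was the only agent that differed between them. All cells had first been held for 18 h in medium without growth factor. MCF10A cells are an established line of mammary epithelium that does not form tumours, and every library came from it. The assay was ATAC-seq, in which a transposase inserts sequencing adapters into DNA it can reach, and the values used were the peaks called in each library. The other libraries were CTRL (0 h, 4 libraries), and PBS, HGF, OSM, TGFB with EGF, EGF and IFNG with EGF at 24 h, with PBS, HGF, OSM and TGFB with EGF also at 48 h. The study's methods describe the replicates as biological, from cells of 1 frozen batch, and the labels do not say which libraries were grown together.

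IFNG binds a receptor of IFNGR1 and IFNGR2 chains, and the kinases JAK1 and JAK2 then pass the signal on to the nucleus, where the GAS element is bound. Among the targets is the gene of IRF1, a transcription factor, and IRF proteins bind repeats of GAAA. Classical IFNG targets include genes of antigen presentation, chemokines that attract T cells, guanylate-binding proteins and antiviral effectors. EGF drives proliferation of MCF10A cells through the MAPK cascade.

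Overlapping peaks on chromosomes 1 to 22 and X were merged over the 7 libraries into 110318 sites, and the 83144 sites that at least 2 of the 7 libraries listed were analysed. A site was searched for a GAS, written here as TTC, any 3 bases, GAA, and for an IRF pair, written as GAAA, any 2 bases, GAAA. Both strands were read within 100 bp of the centre summit. A GAS was found in 7.07% of all sites and an IRF pair in 5.26%. The stretches below show these elements in sites that the results turn on, with up to 40 bases on either side. Capitals mark, and the labels count, only matches within 100 bp of the centre summit. Further out, the letters of another GAS at AIM2 and of another IRF pair at CIITA stand in lower case. They are on the plus strand of hg38, where an IRF pair on the other strand reads as TTTC, any 2 bases, TTTC. A match is a description of the letters and not evidence of binding.
AIM2, 1 GAS, chr1:159077264-159077352: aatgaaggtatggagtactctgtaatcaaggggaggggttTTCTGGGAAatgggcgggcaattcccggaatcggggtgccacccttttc
CXCL10, 1 GAS, chr4:76028486-76028574: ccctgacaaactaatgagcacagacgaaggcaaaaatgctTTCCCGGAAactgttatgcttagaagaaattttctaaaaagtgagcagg
SFXN1, 1 GAS, chr5:175494891-175494979: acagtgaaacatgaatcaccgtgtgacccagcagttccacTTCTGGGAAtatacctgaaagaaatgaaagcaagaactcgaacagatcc
EID2, 2 IRF pairs, chr19:39557999-39558144: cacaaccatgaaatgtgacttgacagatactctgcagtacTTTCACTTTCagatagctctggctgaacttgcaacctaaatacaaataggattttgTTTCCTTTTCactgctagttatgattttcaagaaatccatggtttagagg
CIITA, 1 IRF pair, chr16:10878862-10878951: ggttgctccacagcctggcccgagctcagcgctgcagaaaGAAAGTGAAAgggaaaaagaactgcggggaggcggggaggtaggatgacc
IFI44, 1 IRF pair, chr1:78649731-78649820: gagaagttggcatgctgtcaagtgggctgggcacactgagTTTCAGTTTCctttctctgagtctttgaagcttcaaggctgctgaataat
ISG15, 2 overlapping IRF pairs, chr1:1013344-1013439: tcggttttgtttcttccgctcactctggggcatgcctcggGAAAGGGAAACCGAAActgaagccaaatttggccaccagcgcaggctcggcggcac
SOCS1, 3 IRF pairs, chr16:11258793-11258937: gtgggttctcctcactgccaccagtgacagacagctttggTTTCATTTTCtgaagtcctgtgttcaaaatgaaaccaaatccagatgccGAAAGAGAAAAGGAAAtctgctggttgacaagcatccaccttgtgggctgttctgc
GBP5, 1 GAS and 1 IRF pair, chr1:89286999-89287129: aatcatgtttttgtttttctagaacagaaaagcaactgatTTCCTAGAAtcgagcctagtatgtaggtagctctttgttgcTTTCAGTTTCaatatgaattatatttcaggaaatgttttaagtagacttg
BCL2L14, 1 GAS and 1 IRF pair, chr12:12071278-12071398: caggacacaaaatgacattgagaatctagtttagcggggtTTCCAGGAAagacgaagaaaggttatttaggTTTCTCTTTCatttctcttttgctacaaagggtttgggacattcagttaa
The AIM2, EID2, CIITA, SFXN1 and ISG15 sites passed a test described further on. The CXCL10, IFI44, SOCS1, GBP5 and BCL2L14 sites were listed in IFNG replicates A and B and in no EGF library, and were chosen after their values were seen.

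The libraries were alike in peak number except for IFNG replicate C. IFNG replicates A and B had 66001 and 79535 distinct peaks and the 4 EGF libraries had 61046 to 73764, while IFNG replicate C had 5718, or 9.37% of the next smallest. Its background of 1.18 fragments per base lay within the range of the 7 libraries, 0.87 to 1.25. In the study, ATAC-seq samples with a low share of reads in peaks were removed. Its supplement reports that low-quality samples of IFNG with EGF were removed, which left fewer than 3 replicates of this treatment. Neither text names the samples. Replicate C had by far the fewest peaks of the 3, so it may be one of those removed and of low quality. Values without replicate C are given beside the results that rest on it. The group difference in log10 peak number was -0.338 (4.56 ± 0.669, SD, n = 3, against 4.9 ± 0.0282, SD, n = 4, exact permutation p = 0.4, two-sided). Without replicate C it was 0.0473. Promoter peaks, whose summit lay no more than 1000 bp from the start of a protein-coding gene, made up 28.2% ± 8.07 (SD, n = 3) with IFNG and 23.6% ± 1.51 (SD, n = 4) with EGF (exact permutation p = 0.371, two-sided), and the difference without replicate C was -0.0429 percentage points. Outside replicate C, 8 of 10 basal epithelial markers had a promoter peak in each of the 6 libraries (not KRT14 or TP63). Of 6 leukocyte markers 1 had one (CD14), and of 6 luminal markers 3 or 4 had one (KRT8, KRT18, FOXA1 and, in all but EGF replicate D, GATA3), not ESR1 or PGR.

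IFNG replicates A and B shared many sites that no EGF library listed. There were 5688 such sites, 6.84% of all, and 25 of them were also listed in IFNG replicate C. Those 25 were 0.44% of the set, below the 3.95% that the detection of equally strong sites in replicate C would give. Replicate C listed only 5.4% of all sites, so absence there says little. For most of the set the pattern thus rests on replicates A and B alone. The opposite pattern, listed in all 4 EGF libraries and in neither IFNG A nor B, held for 1909 sites, 2.3% of all. Another 3423 sites were listed in all 7 libraries. The IFNG-only pattern asks for 2 libraries and the EGF-only pattern for 4, so their counts cannot be set against each other directly. With the 73426 strongest summits of each of the 6 libraries the counts were 4296 and 2827. The IFNG-only sites were mostly far from promoters: 4.11% had a centre summit within 1000 bp of a start, against 16.1% of all sites, and 49.6% were intronic. Their peaks had a median of 14 fragments at the summit in replicate A and 19 in B.

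Before any ligand, most of these IFNG-only sites were not listed either. Of the 5688, 3422 were in none of the 4 CTRL libraries and 515 were in all 4. Of the sites of the EGF-only pattern, 83.7% were listed in all 4 CTRL libraries. That pattern asks for more libraries than the IFNG-only pattern, so these shares cannot be set against each other directly. The single CTRL libraries listed 83.8% to 86.5% of all sites. They listed 21.8% to 25.2% of the IFNG-only sites, where their detection of equally strong sites would give 77.9% to 81.3%. For the EGF-only sites they listed 92.4% to 95.5%, where it would give 82.3% to 85.5%. Both sets were chosen by listing at 48 h, and strength was the highest over those libraries without replicate C. Part of both departures is therefore fixed by the choice of sites.

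Sites near genes of the interferon response were listed with IFNG alone more often than sites in general. The 8 interferon lists held 138 genes with 686 sites within 50 kb of a start, and 124 of these sites, 18.1%, were IFNG-only, against 6.84% of all sites. The 7 other lists (EGF and MAPK response, cell cycle, cell type markers and genes every cell uses) held 72 genes with 513 sites, of which 25, 4.87%, were IFNG-only. Among the other lists the share ran from 1.37% for genes every cell uses to 7.07% for the cell cycle. Within 1000 bp of a start the IFNG-only pattern held for 27 of 145 sites of the interferon lists, 18.6%, and for 0 of 62 sites of the other lists. Over all 13415 sites at that distance it held for 1.74%. The EGF-only pattern held for 6 of the 686 sites (0.875%) and for 14 of the 513 (2.73%), against 2.3% of all sites. Lists were chosen with results of these data known, and no test of a list was made.

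**Figure D1:**
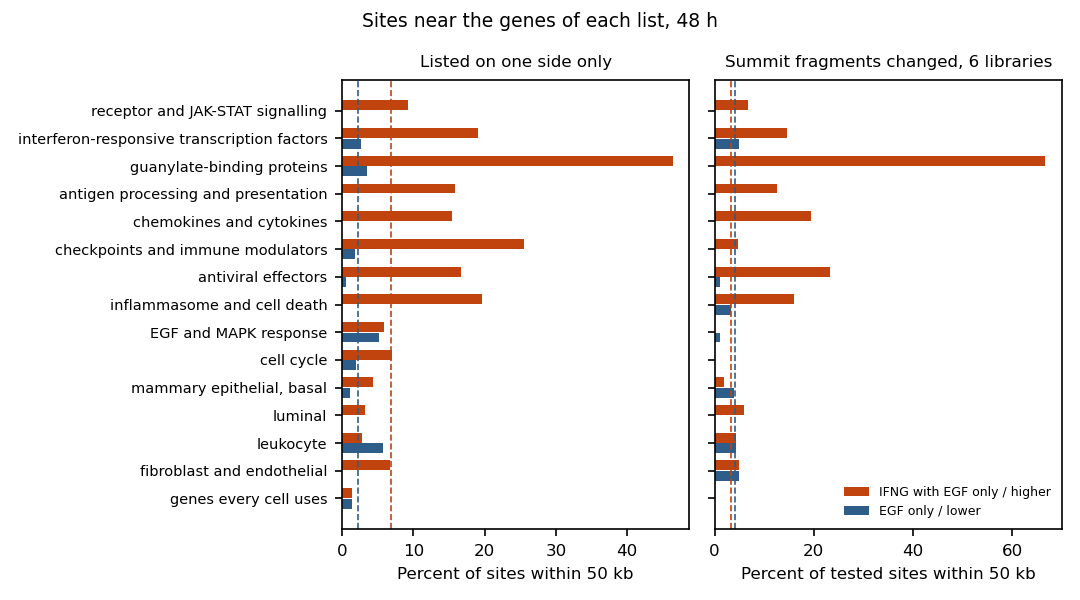
Percent of the sites within 50 kb of the genes of each list. Left, sites listed in IFNG A and B and in no EGF library (orange) or in all 4 EGF libraries and in neither IFNG A nor B (blue). Right, sites whose summit fragments were called higher (orange) or lower (blue) with IFNG in the 6 libraries. Dashed lines mark all sites (6.84% and 2.3% on the left, 3.34% and 4.02% on the right). Guanylate-binding proteins have the longest orange bar in both panels, 46.4% and 66.7%, the latter from 6 tested sites.

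Guanylate-binding proteins, GTPases that act against intracellular pathogens, had the highest share of IFNG-only sites among the lists, 13 of 28 (46.4%). A site 155 bp from a GBP5 start (chr1:89272439-89273315) had 71, 115 and 13 fragments at its summit in IFNG replicates A, B and C. It was listed in none of the EGF libraries at 48 h or 24 h and in no CTRL library. The 3 IFNG libraries of 24 h listed it, with 42, 20 and 23 fragments. The GBP4 promoter site, 4 bp from a start and holding both a GAS and an IRF pair, had 14 and 25 fragments in IFNG A and B and was listed in no EGF or CTRL library. These genes form 1 cluster on chromosome 1 and are close paralogs, so reads that match several of them may have been placed at the wrong member.

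Among the transcription factors, a wide site in an IRF1 intron (chr5:132479258-132482178, 9065 bp from a start) had 203, 237 and 39 fragments in IFNG A, B and C. It was listed in none of the EGF and CTRL libraries. It stood on a high local background of 44.1 and 66.7 fragments in A and B, with a fold enrichment of 4.52 and 3.52. The IRF1 promoter, by contrast, was open in all 7 libraries, with 113, 188 and 22 fragments with IFNG and 92, 87, 124 and 79 with EGF. CIITA, the master activator of MHC class II genes, had a site 1603 bp from a start (chr16:10878442-10878989) with 60, 70 and 14 fragments in IFNG A, B and C and none listed in EGF. That site was listed in 3 of the 4 CTRL libraries, with 23, 15 and 10 fragments, so it was not closed before treatment. IRF2, a relative of IRF1, had a promoter site with an IRF pair at 19 and 17 fragments in IFNG A and B, listed in no EGF or CTRL library.

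In antigen processing and presentation, 12 of 76 sites (15.8%) were IFNG-only. The promoter of CD74, the invariant chain of MHC class II, had 128 and 161 fragments in IFNG A and B and was listed in no EGF or CTRL library. The 3 IFNG libraries of 24 h gave 95, 33 and 69 there. PSMB10, a subunit of the immunoproteasome, had a promoter site with an IRF pair at 45 and 47 fragments in IFNG A and B and in no EGF or CTRL library. HLA-DMA, which loads peptide onto class II molecules, had one at 16 and 19, also listed in 1 CTRL library with 9. The promoters of PSMB9, with 14 and 28 fragments against 13, 13, 17 and 14, and of B2M, the class I light chain, with 22 and 40 against 26, 30, 53 and 39, were listed in both groups. No site was analysed within 50 kb of HLA-DRA or HLA-DRB1. Reads of this region also align to the alternative contigs of chromosome 6, which were not merged into sites.

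The chemokines CXCL9, CXCL10 and CXCL11 share 1 locus and the receptor CXCR3. Their promoter sites had 12 and 12, 10 and 30, and 25 and 25 fragments in IFNG A and B, in that order of genes, and none was listed in an EGF or CTRL library. The CXCL10 stretch printed above lies 5031 bp from a CXCL10 start, with the GAS 2 bp from the centre summit, and its site had 12 and 20 fragments. IL18BP, the decoy that binds IL-18, had 35 and 51 fragments at a promoter site with a GAS and an IRF pair. The TNFSF13B promoter (B-cell activating factor) had 27, 37 and 9 fragments in IFNG A, B and C, and was listed in no EGF library but in 2 of the 4 CTRL libraries.

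IDO1, which degrades tryptophan, had a promoter site with an IRF pair at 16 and 21 fragments in IFNG A and B. WARS1, the tryptophanyl-tRNA synthetase, had one with a GAS and an IRF pair at 84 and 110, and neither was listed in an EGF or CTRL library. Another WARS1 promoter site was listed in both groups and is described with the peak heights. For checkpoints and immune modulators as a list, 14 of 55 sites (25.5%) were IFNG-only. The promoter of CD274, which encodes PD-L1, was open in all 7 libraries with 60, 76 and 13 fragments against 34, 31, 65 and 38, so the groups overlapped.

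For the antiviral effectors 30 of 180 sites (16.7%) were IFNG-only. They included promoter sites of IFI44, with 17 and 45 fragments in IFNG A and B, of IFITM1, with 19 and 29, of OAS1, with 21 and 29, of MX2, with 19 and 31, and of XAF1, with 11 and 25. TRIM22, a restriction factor, had a promoter site with a GAS at 36 and 55 that all 4 CTRL libraries listed, with 8, 22, 18 and 12. IFIT3, which binds viral RNA in a complex with other IFIT proteins, had a site 67 bp from a start with 37 and 41, which all 3 IFNG libraries of 24 h listed, with 23, 13 and 20. For inflammasome and cell death genes the count was 14 of 71 (19.7%). The DNA sensor AIM2 had a site (chr1:159076633-159077500) with 55, 77 and 11 fragments in IFNG A, B and C, and 65, 31 and 37 at 24 h. In the receptor and JAK-STAT list the share was lower, 10 of 108 (9.26%), and no promoter site of these genes was IFNG-only. SOCS1, the feedback inhibitor of JAK kinases, had an IFNG-only site with 3 IRF pairs 2696 bp from a start, at 35 and 54 fragments.

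**Figure D2:**
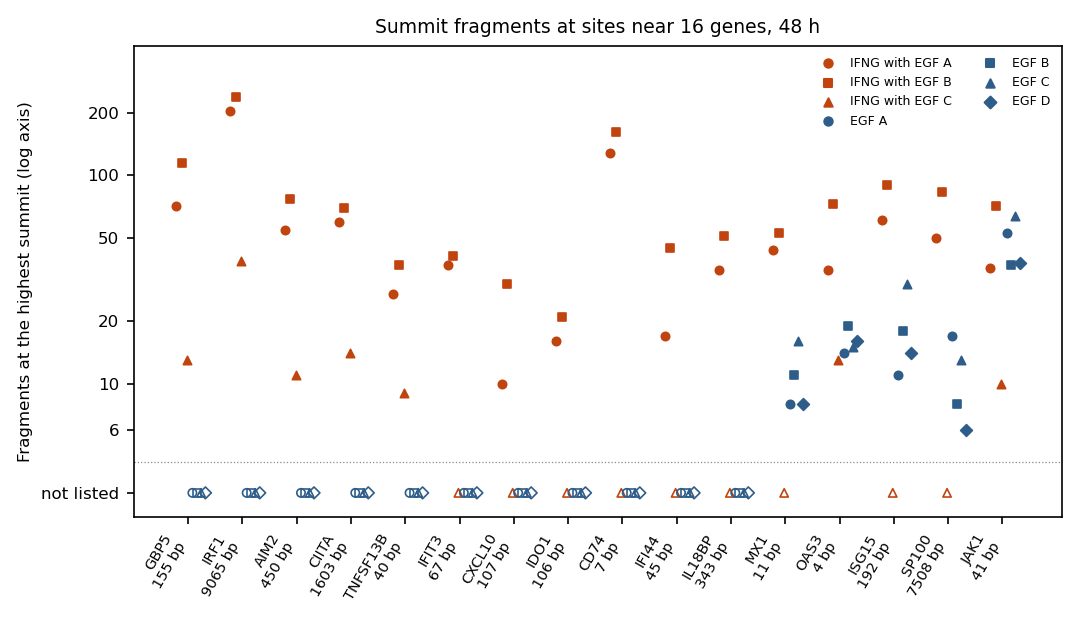
Fragments at the highest summit of a site (log axis) in each 48 h library, for sites near 16 genes. Labels give the gene and the distance to its nearest start. Open symbols under the dotted line mark libraries that did not list the site. The GBP5 to IL18BP sites were listed in no EGF library, the MX1 to SP100 sites were called higher with IFNG, and the JAK1 promoter is shown as a site open in both groups.

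Sites open in both groups could be compared by the height of their peaks. The measure was the log2 fold enrichment of the summit over its local background, quantile-normalised, and it was tested with limma. Over all 7 libraries, 3423 sites could be tested and none passed an adjusted p of 0.05 (background 0% higher and 0% lower), with 125 higher and 121 lower at an unadjusted p under 0.05. Over the 6 libraries without IFNG replicate C, 40419 sites were tested, and 295 were higher with IFNG (background 0.73%) and 423 lower (background 1.05%). Without replicate A 0 and 0 were called and without replicate B 8 and 35, in fits where the lone IFNG library was assumed to vary like the EGF libraries (1882 and 2249, and 2018 and 2745, at an unadjusted p under 0.05 in limma). The median log2 difference was 0.93 among the higher sites and -0.92 among the lower.

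MX1, a GTPase that blocks viral replication, was among the 10 largest rises. Its promoter site, 11 bp from a start and with an IRF pair, had 44 and 53 fragments in IFNG A and B against 8, 11, 16 and 8 in EGF. The log2 difference in fold enrichment was 1.35 ± 0.24 (SE, limma adjusted p = 0.0137). An intronic site of SP100, a nuclear body protein, had 50 and 83 against 17, 8, 13 and 6 and rose by 1.51 ± 0.27 (SE, limma adjusted p = 0.0137). The OAS3 site, 4 bp from the start of this 2'-5'-oligoadenylate synthetase gene, rose by 1.17 ± 0.19 (SE, limma adjusted p = 0.00972). ISG15, a ubiquitin-like modifier, had 61 and 90 fragments against 11, 18, 30 and 14 and rose by 1.12 ± 0.26 (SE, limma adjusted p = 0.0417). In each of these the IFNG libraries A and B lay above all 4 EGF libraries.

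The largest rise by fold enrichment was in an intron of SFXN1, which encodes a mitochondrial serine transporter. It had 54 and 70 fragments in IFNG A and B against 9, 12, 9 and 9, with a log2 difference of 1.58 ± 0.18 (SE, limma adjusted p = 0.00257). Its GAS lies 29 bp from the centre summit. Introns of DDX3X, ANK2, STX8, PDP1, SCML4 and FRYL and a site 316 bp from a ZSCAN31 start made up the rest of the 10 with MX1 and SP100, with log2 differences of 1.35 to 1.54.

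Fold enrichment depends on the local background, which itself moved at some loci. Beside the WARS1 promoter (chr14:100376079-100376788, 60 bp from a start), fragments were 83 and 114 with IFNG and 68, 78, 95 and 51 with EGF, yet the fold enrichment was called lower (log2 difference -0.87 ± 0.18, SE, limma adjusted p = 0.0272). The local background there was 10.2 and 15.4 fragments in IFNG A and B and 3.64 to 5.53 in EGF. The fit was therefore repeated on log2 summit fragments, a measure added after the data had been seen. It called 1351 sites higher (background 3.34%) and 1623 lower (background 4.02%) of 40391, with 134 to 1474 higher and 234 to 1593 lower when 1 library was left out. The fewest were without IFNG replicate A (134 and 234) and B (248 and 290). Of the sites called by fold enrichment, 286 of 295 higher and 406 of 423 lower were called the same way. The WARS1 site (0.31 ± 0.20, SE, limma adjusted p = 0.404) and a GBP3 site 18456 bp from a start (1.24 ± 0.20, SE, limma adjusted p = 0.00385, against -0.74 in fold enrichment) were the 2 lower sites whose fragments differed the other way. At the GBP3 site the background was 5.64 and 9.74 fragments in IFNG A and B and 0.875 to 1.19 in EGF.

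Near the interferon lists 322 sites were tested, and by fold enrichment 6 were higher and 2 lower. Among all tested sites 0.73% were higher and 1.05% lower. By summit fragments, the measure added later, 53 were higher, 16.5% against 3.34% of all sites, and 5 were lower, 1.55% against 4.02%. Near the 7 other lists 4 of 302 were higher and 5 lower (1.32% and 1.66%), both below the shares of all sites. Higher sites were 20 of 86 for antiviral effectors, 9 of 62 for transcription factors, 6 of 31 for chemokines and cytokines, 5 of 31 for inflammasome and cell death, 4 of 32 for antigen processing and presentation, and 4 of 6 for guanylate-binding proteins. They were 4 of 60 for the receptor and JAK-STAT list (6.67%) and 1 of 21 for checkpoints (4.76%). Of the 5 lower sites 3 were in the transcription factor list (4.84%, against 4.02% of all sites). The median log2 difference over the tested sites of the interferon lists was 0.18, against 0.00 over all sites and -0.03 over the other lists.

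Several of the sites higher by fragments were promoters that both groups listed. None of the promoters named next passed the test of fold enrichment, where their adjusted p ran from 0.0662 (APOL6) to 0.895 (GBP2). A CIITA site 88 bp from a start had 59 and 64 fragments with IFNG against 12, 17, 20 and 16 (log2 difference 1.82 ± 0.21, SE, limma adjusted p = 9.73e-04). APOL6, an apolipoprotein L gene, had 41 and 42 against 8, 16, 13 and 12 (1.70 ± 0.26, SE, limma adjusted p = 0.00292). GBP2 had 34 and 63 against 18, 19, 19 and 16 (1.22 ± 0.20, SE, limma adjusted p = 0.00392). The promoters of BST2 (tetherin), IFITM3, OASL, IFIH1 (the RNA sensor MDA5) and CASP4 were also higher, by 1.06 to 1.33 on the log2 scale. HLA-C, a class I heavy chain, had 23 and 24 against 12, 14, 10 and 9 (0.96 ± 0.23, SE, limma adjusted p = 0.0251).

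Promoters of several members of the pathway itself did not pass this test. The IRF9 promoter had 44 and 54 fragments against 25, 31, 40 and 24 (0.58 ± 0.20, SE, limma adjusted p = 0.093). The log2 differences were 0.53 for IRF1, -0.09 for STAT3 and -0.08 for IFNGR1.

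Like the higher sites, sites lower with IFNG lay mostly away from promoters. Of the 423 lower by fold enrichment, 57% were intergenic and 3.55% promoter-proximal, against 46.9% and 26.7% of all tested sites and 41.7% and 7.8% of those higher. The largest fall was in an intron of PLEKHM3, 78078 bp from the start of FZD5, with 8 and 13 fragments in IFNG A and B against 49, 66, 68 and 50 in EGF (log2 difference in fold enrichment -1.57 ± 0.19, SE, limma adjusted p = 0.00331). A site in an intron of NFE2L2, the gene of the oxidative stress regulator NRF2, had 12 and 10 against 58, 30, 56 and 33 (-1.51 ± 0.21, SE, limma adjusted p = 0.00597). IL20RA, a chain of receptors for IL-20 family cytokines, had an intronic site at 9 and 11 against 43, 60, 58 and 32 (-1.49 ± 0.19, SE, limma adjusted p = 0.00561). At all 3, both IFNG libraries lay below every EGF library.

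Near genes of the EGF and MAPK response EGF-only sites were more frequent than among all sites. By fold enrichment few peak heights were called there, as among all sites. The EGF-only pattern held for 8 of 154 sites (5.19%, against 2.3% of all sites) and the IFNG-only pattern for 9 (5.84%, against 6.84%). The EGF-only share was higher still in the leukocyte list, 2 of 35 sites (5.71%). By fold enrichment 1 of 93 tested sites was lower and 0 higher, against 1.05% and 0.73% of all tested sites. The lower site lay 39576 bp from the start of EGR1, an immediate early gene. It had 31 and 42 fragments against 79, 86, 88 and 46 (-1.02 ± 0.20, SE, limma adjusted p = 0.0192). The EGR1 promoter itself had 116, 186 and 23 fragments with IFNG and 109, 149, 157 and 106 with EGF. Another EGR1 site, 17323 bp away, was EGF-only, with 42, 33, 58 and 35 fragments in EGF A to D. For the cell cycle list 7 of 99 sites were IFNG-only and 2 EGF-only (7.07% and 2.02%, near the shares of all sites). None of its 55 tested sites was called higher or lower by fragments, against 3.34% and 4.02% of all sites. Of 52 tested sites near the basal epithelial genes, 2 were lower by fragments (3.85%, against 4.02% of all sites), near the keratin genes KRT5 (-0.91) and KRT17 (-0.75), and 1 was higher, near the adhesion gene EPCAM (1.00). None of the 3 passed by fold enrichment.

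A fit of presence or absence was also made over all 42 libraries in 13 groups, which share 1 estimate of the spread. Detection was adjusted by subtracting the share of sites of the same class, defined by how many of the 42 libraries list a site, that a library lists. At an adjusted p of 0.01 and a difference of at least 0.5, 138 sites were gained with IFNG (0.166% of 83144) and 374 were lost (0.45%). The GBP5, IRF1 and EID2 sites and a site 36905 bp from WARS1 (chr14:100330275-100333460), nearer to SLC25A47, had the lowest adjusted p, 2.93e-06, with an adjusted difference of 0.94 ± 0.10 (SE, limma). Gained sites near interferon genes included those of AIM2 (1.00 ± 0.14), TNFSF13B (1.07 ± 0.20), CIITA (1.25 ± 0.26), IFIT3 (0.61 ± 0.12) and an NLRC5 intron (0.95 ± 0.17), with SE and limma adjusted p of 1.69e-04 to 0.00707. The NLRC5 site was listed in all 4 CTRL libraries. Of the 686 sites of the interferon lists 9 were gained and 0 lost, where 0.166% and 0.45% of all sites were. Of the 513 sites of the 7 other lists 0 were gained and 3 lost, near the shares of all sites. Among the 3 was a site 26519 bp from HBEGF, an EGF receptor ligand. It had 11, 12, 22 and 10 fragments in EGF A to D (-0.74 ± 0.16, SE, limma adjusted p = 0.00816).

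These calls rested on few libraries and on the spread shared over 42 libraries. With the 7 libraries of the comparison alone, or with the 14 of EGF and IFNG with EGF, the limma fit called 0 gained and 0 lost (5736 and 1905, and 6406 and 4784, at an unadjusted p under 0.05). Without IFNG replicate A 6 sites were gained and 0 lost, without B 22 and 0, and without C 858 and 2069. The adjustment also treated the 2 directions unequally in the rarest classes. Of the 1339 sites listed in exactly 2 of the 42 libraries, IFNG A and B listed 84.3% and 89.5%, and the EGF libraries 2.69% to 9.86%. A site listed in only those IFNG libraries thus had an adjusted difference of 0.149, while a site listed only in EGF B and D had one of -1.02. Of the lost sites 181 were in 2 EGF libraries and no IFNG library, and of the gained sites 99 were listed in all 4 CTRL libraries. The SMAD3 site, for example, had 23 and 26 fragments in IFNG A and B, none listed in EGF at 48 h, and 53, 43, 51 and 59 in CTRL.

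The IRF pair was more frequent in the IFNG-only sites than in all sites. It was found in 31.8% of them, in 5.26% of all sites and in 1.31% of the EGF-only sites. In the 3263 IFNG-only sites that no CTRL and no 24 h EGF library listed, it was found in 43.8%. A GAS was found in 10.9% of the IFNG-only sites, 7.07% of all and 5.24% of the EGF-only sites. Among sites called by fold enrichment, the IRF pair was in 20.7% of the higher, 0.709% of the lower and 2.84% of all tested. Among those called by fragments, it was in 16.7% of the higher and 1.36% of the lower. The AP-1 element (TGA, any base, TCA) was in 30.2%, 36.4% and 38.6% of the IFNG-only, all and EGF-only sites.

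Base composition differed between these sets, since IFNG-only sites had 43.8% G and C in the 201 bp around the summit and all sites 50.8%, and repeats of A-rich letters are more frequent in such DNA. The same pair of GAAA read backwards, AAAG, any 2 bases, AAAG, was in 985 IFNG-only sites, 582 of which also held the IRF pair. Without an IRF pair, the reversed letters were in 10.4% of IFNG-only sites and 2.16% of all. Its part in the IRF pair result was not tested.

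**Figure D3:**
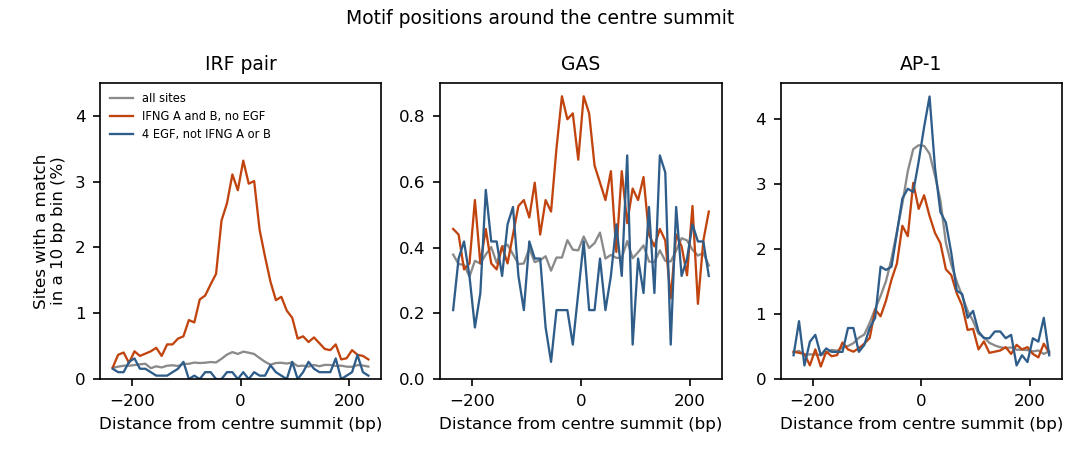
Percent of sites with a match in each 10 bp bin (y axis, a separate scale in each panel) by distance from the centre summit in bp (x axis), for the IRF pair, the GAS and AP-1. Lines are all sites (grey), sites listed in IFNG A and B and no EGF library (orange) and sites listed in all 4 EGF libraries and neither IFNG A nor B (blue). The IRF pair and the GAS are most frequent near the summit in the orange set, and AP-1 is in all 3 sets.

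A motif deviation was computed for each library as the percent by which its listed sites with a motif exceeded the number expected. That number came from the share of sites the library listed in each class, set by how many of the 7 libraries list a site. Within a class the listings have a fixed total, so an excess in some libraries goes with a deficit in others. For the IRF pair it was 45.8%, 24.3% and 75.7% in IFNG A, B and C and -17.2%, -21.2%, -28.3% and -22% in EGF A to D, so the groups did not overlap. The means were 48.6 ± 25.8 (SD, n = 3) and -22.2 ± 4.62 (SD, n = 4), with an exact permutation p of 0.0286 (two-sided), the smallest that 3 against 4 allows, and 0.0694 after adjustment over 17 motifs. Without replicate C the difference was 57.2. The reversed IRF pair gave 34.6%, 22.4% and -39.1% against -13.6% to -19.7%, a difference of 44.5 without replicate C. The interferon-stimulated response element (ISRE), a longer form of the pair, gave 55.9%, 32.9% and 0.21% against -22% to -30.2%.

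For the GAS the deviations were 7.11%, 0.0852% and 117% with IFNG and -1.18%, -3.28%, -7.37% and -2.93% with EGF (exact permutation p = 0.0286, two-sided, adjusted 0.0694). Most of the difference of 45.2 came from replicate C, and it was 7.29 without it, and 4.54 with only the 6156 strongest summits of each library. In replicate C, control letters with no known role deviated as far, by 156% for TTC and GAA spaced by 4 bases and 210% for GAAA and GAAA spaced by 1. Without replicate C, the differences for these controls were 1.91 and 20.0. For TEAD, RUNX, p53 family and FOX elements all 3 IFNG libraries lay below the 4 EGF libraries, with differences of -3.32 to -16.2, and of -1.78 to -9.24 without replicate C, each with an exact permutation p of 0.0286 and 0.0694 after adjustment. The p53 family letters reversed gave a difference of -12.1, and of -6.03 without replicate C, against -10.9 and -7.46 for the element itself.

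**Figure D4:**
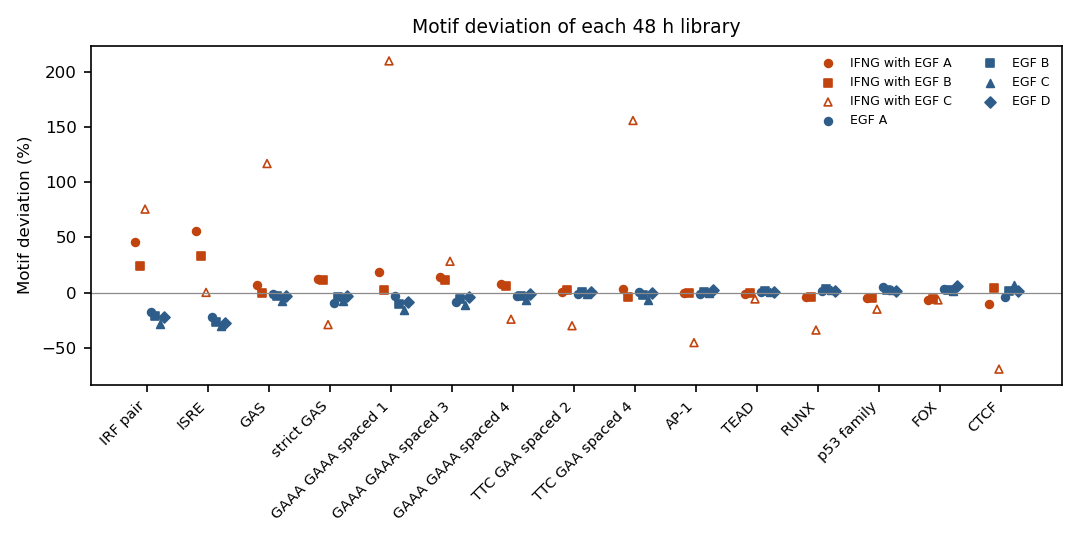
Motif deviation in percent (y axis) of each 48 h library for 15 letter patterns (x axis), with spacing controls for the GAS and the IRF pair. IFNG libraries are orange, with replicate C as open triangles, and EGF libraries are blue. IFNG A and B lie above all 4 EGF libraries for the IRF pair and the ISRE, while replicate C scatters widely, reaching 210% for a control.

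The 24 h libraries took no part in defining the IFNG-only and EGF-only sets, and offered a test of them. For each library the listed sites were compared with the number expected from its detection of sites of the same peak strength. The IFNG-only sites of 48 h deviated by -12.5% ± 17.2 (SD, n = 3) in IFNG at 24 h and by -85.8% ± 8.28 (SD, n = 4) in EGF at 24 h (exact permutation p = 0.0286, two-sided, 0.0333 adjusted over 7 sets). With an IRF pair the means were -10.1% and -95.3%, and with a GAS 17.4% and -87.7%. Sites with neither gave -18.7% and -80% (each adjusted p = 0.0333, exact permutation). The sets with an IRF pair, a GAS or neither are parts of the first set, so the 7 tests are not separate. An exact permutation p of 0.0286 is also the smallest that 3 against 4 allows. The EGF-only sites went the other way, with -73.4% ± 20.7 (SD, n = 3) in IFNG and -1.13% ± 12.8 (SD, n = 4) in EGF at 24 h (exact permutation p = 0.0286, two-sided, adjusted 0.0333).

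With the other treatments the IFNG-only sites were listed less often than their strength would give. That strength was the highest over the 48 h libraries without replicate C, and these sites were chosen as absent from EGF at 48 h. A deficit in libraries without IFNG is therefore partly fixed by the choice, and its size alone cannot be read. Over the CTRL, PBS, HGF, OSM and TGFB with EGF libraries, at 24 h and 48 h, the deviation was between -96.3% and -65.1%. The 3 IFNG libraries of 24 h gave 2.89%, -31.1% and -9.3%, and so lay above all of these. IFNG replicate C of 48 h gave -88.9%. For sites with a GAS the range of the other treatments was -93.4% to -42.1%. For the EGF-only sites it was -78.8% to 12.7%, which overlapped the IFNG libraries of 24 h, so low listing of these sites was not particular to IFNG. Sites called lower by fold enrichment deviated by -39.1% in IFNG and 10.5% in EGF at 24 h (exact permutation p = 0.0286, adjusted 0.0333). Sites called higher gave 17.6% ± 5.6 (SD, n = 3) and -16% ± 23 (SD, n = 4), which did not pass (exact permutation p = 0.0857, two-sided). No site differed between its 48 h and 24 h IFNG contrasts at an adjusted p of 0.01 in the limma fit of detection (lowest adjusted p = 0.0852, with 7622 sites at an unadjusted p under 0.05).

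**Figure D5:**
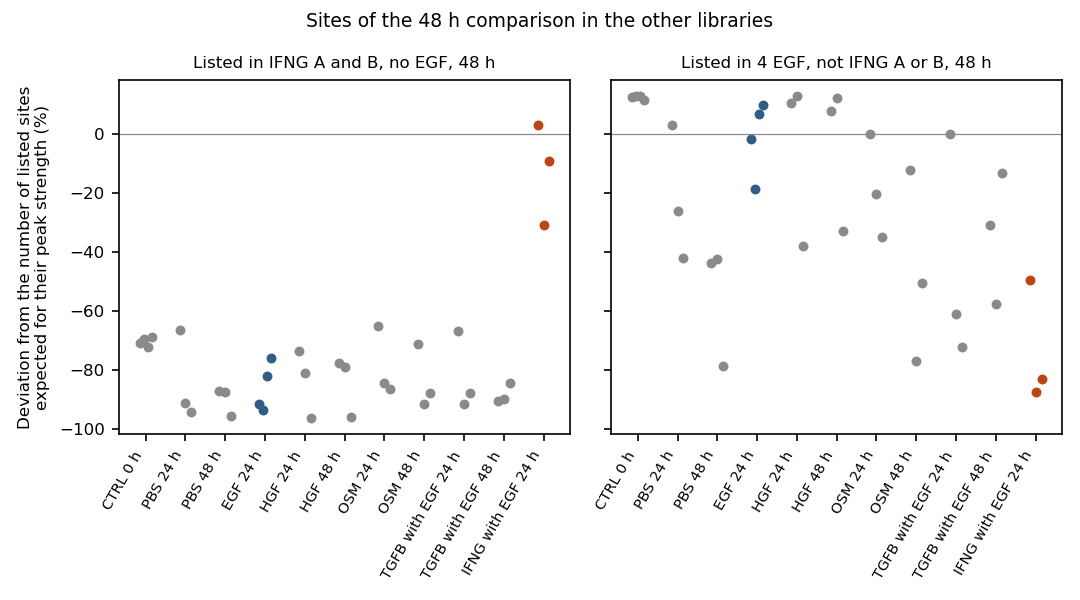
Deviation in percent of the listed sites from the number expected for their peak strength (y axis), with 1 point for each library outside the 48 h comparison, by treatment and time (x axis). Left, sites listed in IFNG A and B and in no EGF library at 48 h. Right, sites listed in all 4 EGF libraries and in neither IFNG A nor B. On the left the 3 IFNG libraries of 24 h (orange) lie above every other library, and on the right they lie at or below -49.7% while EGF at 24 h (blue) lies between -18.8% and 9.67%.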

How the data were processed

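ATAC-seq of MCF10A cells was deposited as 1 MACS2 narrowPeak list per library. The authors trimmed reads with Trimmomatic (0.36.5), aligned them to hg38 with Bowtie2 (2.3.4.1), processed them with Picard and called peaks in each library separately with MACS2 (2.1.1.20160309.5) at q 0.01. As deposited, each summit has a fold enrichment over local background, a −log10 p, a −log10 q and an integer score, which the caller computed from fragment pileup. Read counts were not used here, nor were BMP2 libraries.

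Summit fragments were recovered from the fold enrichment and the −log10 p of each summit, for summits with a −log10 p of at most 250. All of these (100%) gave a whole number that returned the deposited −log10 p within 0.001, and 40391 of the 40419 sites tested for height had a value in all 6 libraries. They depend on the depth of a library, which ranged from 0.87 to 1.25 background fragments per base. Overlapping peaks on chromosomes 1 to 22 and X were merged over the 7 libraries, and sites in at least 2 were kept. Genes are from GENCODE 44, with 19962 protein-coding genes. Detection was fitted with limma (3.58.1, R 4.3.3) over 42 libraries in 13 groups, and peak heights over the 7 or 6 libraries, with Benjamini-Hochberg adjustment. Library values were compared by exact permutation tests. The fits were tested on simulated data. The rule for named sites took the 10 gained and the 10 lost with the lowest adjusted p, the 10 largest rises and falls in height, and genes of the lists with a called site within 50 kb, of which some are printed. Members and lists were chosen with earlier results of these data known, and sites named outside this rule were chosen after their values were seen. Alternatives were a replicate block, the sequencing lane in the file names as a term, other normalisations, filters and thresholds, and leaving out each library.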

Additional observations from a re-analysis of the deposited data

Results flagged for a closer look

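IFNG replicate B had 0.736% of its summit lines (735) on the alternative contigs of chromosome 6, which carry other versions of the MHC region and were not merged into sites. This was above the 0.37% to 0.591% of the 4 EGF libraries, while IFNG replicates A and C had 0.515% and 0.0593%. No sample stood apart from its group of 4 in the 28 values checked. The check was limited to groups of 4, so the IFNG libraries, replicate C among them, were not covered.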

How the results depend on the processing

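Counts of sites moved with many settings. Gained sites numbered 1317 with raw detection, 1631 with array weights, 7 among sites in at least 3 libraries, 67 with equal peak numbers, 1268 at an adjusted p below 0.05, and 4138 with classes of peak strength, an alternative added after the data were seen that gave 0 without IFNG replicate A or EGF replicate C and 13 without IFNG replicate B. Lost sites numbered 4417 with array weights, 12 in at least 3 libraries, 247 with equal peak numbers and 2071 at an adjusted p below 0.05. With the 7 libraries alone the limma fit called 0 gained and 0 lost (5736 and 1905 at an unadjusted p under 0.05), and with the 14 libraries of both ligands 0 and 0 (6406 and 4784). Leaving out 1 library gave 6 to 858 gained and 0 to 2069 lost. For heights over 6 libraries, the −log10 p gave 765 higher and 957 lower, a floor for unlisted libraries 4573 and 1655, and summit fragments 1351 and 1623, the last pair of settings also added after the data were seen. Leaving out 1 library gave 0 to 268 higher and 0 to 347 lower, and over all 7 libraries 0 to 4 higher and 0 lower. The IFNG-only sites numbered 25 when replicate C had to list them, and 5707 to 6751 with 1 library left out. The EGF-only sites numbered 2189 to 4925. Leaving out a library only relaxes either pattern, so neither count could fall and the ranges do not test them. The sites themselves had been kept with the left-out library included. The cause of these shifts was not tested, beyond the smaller number of samples or sites.

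In adjusted detection, deviations of same-letter libraries correlated at 0.028, 0.004 and -0.003, and those of other letters at -0.054 to 0.038. These values cannot settle whether the letters pair the samples, since 1 pair holds replicate C and peak heights were not compared this way. By fold enrichment 295 were higher and 423 lower without a replicate block. With a replicate block the limma fits gave 751 higher and 758 lower by fold enrichment, 1870 and 1986 by summit fragments, 0 and 0 with the floor (7840 and 4862 at an unadjusted p under 0.05), and 98 gained and 299 lost. With the lane as a term 118 were gained and 312 lost. With 1 library left out the difference in motif deviation was 57.2 to 82.9 for the IRF pair and 7.29 to 66 for the GAS, in designs too small for the adjusted p to pass. Summits were listed from 6 to 8 fragments upwards, so weaker openings were not detectable at this depth.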
